A study of Rattus norvegicus with 2 samples.

Results

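The let-7 family is a group of miRNAs that carry the same seed, the stretch near the 5′ end of a mature miRNA that pairs with its target mRNAs. The guide strands (the arm of the hairpin that is usually loaded into Argonaute) of let-7a, b, c, d, e, f and i and of miR-98 were taken by probe name, without the passenger strands whose names end in an asterisk. These were 8 of the 349 rat miRNA probes on the array. let-7g was not analysed here. The RNA came from the nucleus accumbens (NAc), core and shell, of adult male Sprague-Dawley rats weighing 150 to 180 g at the start. One group received vehicle (500 µl saline, i.p. bid) and the other alcohol (1 g/kg, i.p. bid), both for 7 days, and the study divided 18 rats between them. The deposited data hold 1 array for each group, so the difference between groups had no replicate check and no test, and a difference between rats, arrays and treatments cannot be told apart. The sources used here do not state how RNA from several rats was combined on an array.

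let-7 miRNAs are transcribed as hairpin precursors from several genes, cut out by Drosha and Dicer, and loaded into Argonaute, where they repress mRNAs with sites that match their seed. They are low in early embryos and stem cells, where the RNA-binding protein LIN28 blocks their maturation, and abundant in differentiated cells, neurons included. Known targets include Hmga2, Lin28a and members of the Ras family. miR-98 is counted with the family because it has the same seed, although its name does not show it.

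The sequences show how little separates the probes of the family. Each is the target listed on the array, 5′ to 3′, and each is identical to the mature rat miRNA in RefSeq. The seed, bases 2 to 8, is in capitals.

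rno-let-7a: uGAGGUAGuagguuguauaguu
rno-let-7c: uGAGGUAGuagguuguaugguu
rno-let-7f: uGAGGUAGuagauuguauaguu
rno-let-7d: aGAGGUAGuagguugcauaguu
rno-let-7b: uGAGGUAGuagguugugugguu
rno-let-7i: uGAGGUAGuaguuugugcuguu
rno-let-7e: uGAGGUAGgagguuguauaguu
rno-miR-98: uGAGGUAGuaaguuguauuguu

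All 8 targets were 22 nucleotides long, shared 1 seed, and were the same at 14 of the 22 positions. None of the other miRNA probes on the array had a listed target with this seed. The 28 pairs of members differed by 1 to 6 bases (median 3), and 4 pairs differed by a single base. Counted from 1 at the 5′ end and read from let-7a, let-7c differed by A19G, let-7e by U9G and let-7f by G12A. let-7b carried A17G and A19G, and so was 1 base away from let-7c. let-7d carried U1A and U16C, and miR-98 carried G11A and A19U. let-7i stood farthest from let-7a, with G12U, A17G, U18C and A19U. Probes this close can share part of their signal, and this was not measured for the family itself. The calibration spikes are not members of the family, so they cannot show how much signal its probes share. In the 3 spike pairs that the array carried with a perfect and a mismatched probe of the same length, the mismatched probe had 0.0178% to 0.0278% of the perfect probe's signal above baseline in the vehicle hybridization and 0.0321% to 0.0921% in the alcohol one. miR-98, the dimmest member, had 2.76% of the above-baseline signal of let-7a with vehicle and 7.75% with alcohol. Whether part of the miR-98 signal came from other members was not tested.

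The mature sequences were placed on the rat genome by their RefSeq entries (assembly GRCr8). The 8 members came from 11 loci on 6 chromosomes, and 10 of the loci had another miRNA gene within 100 kb. The guide strand of Mirlet7a1 lies at chr17:16320145-16320166 and that of Mirlet7d at chr17:16322273-16322294, both on the plus strand within the span of the lncRNA gene LOC120097935, which also spans a let-7f copy listed as Mirlet7f-1os at chr17:16320508-16320529. The other copy of let-7f, Mirlet7f2 (chrX:24460052-24460073), and Mir98 (chrX:24460663-24460684) lie side by side within the span of Huwe1, a protein-coding gene for an E3 ubiquitin ligase. Mirlet7b (chr7:118684044-118684065) neighbours Mirlet7c2 (chr7:118683636-118683657), and neither lies within the span of another listed gene. The remaining clusters pair a let-7 gene with genes of the miR-99/100 and miR-125 families. In this way Mirlet7a-2 (chr8:50805219-50805240) sits with Mir100 and Mir125b1, Mirlet7c1 (chr11:29688127-29688148) with Mir99a and Mir125b2, and Mirlet7e (chr1:67350243-67350264), within the span of Spaca6, with Mir99b and Mir125a. Mirlet7i (chr7:60527935-60527956, minus strand) had no other miRNA gene within 100 kb. The gene table used gives spans and no exons, so exonic and intronic positions were not assigned. let-7a, c and f are each made from 2 loci, and an array cannot say which locus a signal came from.

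The motif GGAG in the loop of let-7 precursors is where LIN28 is known to bind. It was searched for on the given strand, between the arms of the hairpin. Of the 10 member hairpins with a sequence in the table, 8 held it, and those of Mirlet7c2 and Mir98 did not. Of 312 other rat hairpins, 32 (10.3%) held it, but their loop regions were shorter (median 17 nucleotides against 30.5). Among the 38 other hairpins whose region was 23 to 57 nucleotides long, the range of the members, 8 (21.1%) held it.

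The labelled tissue was set against its known miRNAs. The brain-enriched miRNAs miR-9, miR-128 and miR-124 ranked 1, 3 and 12 of 349 on the vehicle array, and the muscle, red blood cell and leukocyte miRNAs miR-1, miR-206, miR-451, miR-142-3p and miR-223 were not detected there. miR-133a, of muscle, passed the detection rule narrowly on the vehicle array with 5 of its 9 spots, and miR-122, of liver, was detected on both arrays. Detection required at least 5 of the 9 repeat spots to lie over a threshold, set at 3 median absolute deviations above the median of the 88 mismatched controls. This held for 151 miRNAs with vehicle, 196 with alcohol and 150 with both, and for all 8 members with both. In the tissue as a whole, fewer cells that express a miRNA and less of it per cell cannot be told apart.

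On the vehicle array, let-7a, let-7c, let-7f and let-7d were the brightest members, in this order, followed by let-7b, let-7i and let-7e, with miR-98 far below. Values here are raw spot densities in arbitrary units, as the lowest, the median and the highest of 9 spots. let-7a gave 27319, 28439 and 31821. let-7c gave 25524, 26518 and 29258, and let-7f gave 24094, 24663 and 27342. The spots of these neighbours overlapped, although let-7a was brighter than let-7c at all 9 paired positions and let-7c brighter than let-7f at 8 of 9. let-7d gave 16100.0, 23160 and 26056, and its low spot had uneven pixels (pixel coefficient of variation 40.9%). let-7b gave 19540, 20481 and 23044, overlapping let-7d. let-7i gave 16236, 17036 and 18435, and let-7e gave 12854, 13704 and 15679. Below let-7b no neighbours overlapped, so the order let-7b, let-7i, let-7e held for every spot. miR-98 gave 799.7, 1020.3 and 1203.8, well above the mismatched controls (median 241) but 3.45 ± 0.20 log2 units (SD over 9 spots) below let-7e after normalization.

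**Figure D1:**
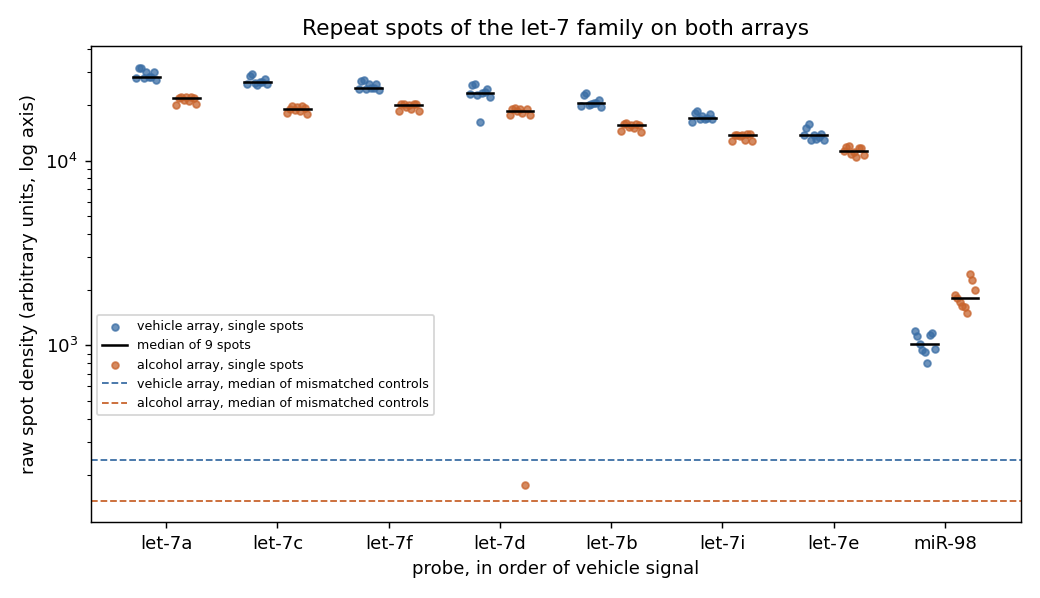
Raw density of each repeat spot (log axis, arbitrary units) for the 8 probes on the vehicle and alcohol arrays, with the median of 9 spots as a black bar and the median of the mismatched control spots of each array as a dashed line. The 7 let-7 probes lie between 10411 and 31821 apart from 1 let-7d spot at 175.9 on the alcohol array, and miR-98 lies between 799.7 and 2440.7.

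The alcohol array gave nearly the same order. let-7a gave 19896, 21722 and 22171, and let-7f gave 18512, 19983 and 20290.4. let-7c gave 17797, 19005 and 19642, so let-7f and let-7c changed places. let-7d gave 175.9, 18606 and 19282. Its lowest spot was near the mismatched controls of that array (median 145) and counts as failed, since it had less than 50% of the median of the probe, and the next lowest spot was 17605. Leaving it out brought the coefficient of variation of let-7d from 37.3% to 3.55%. let-7b gave 14328, 15522 and 16022, let-7i gave 12676, 13659 and 13963, and let-7e gave 10411, 11240 and 11990.4. On this array only the neighbours let-7a and let-7f, let-7f and let-7c, and let-7c and let-7d overlapped. miR-98 gave 1489.5, 1816.2 and 2440.7. All of its spots on the alcohol array were brighter than all of its spots on the vehicle array, while for the other members except let-7d all spots were dimmer on the alcohol array. let-7d overlapped through its uneven vehicle spot and was otherwise dimmer too.

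As raw medians, the alcohol array had 76.4% of the vehicle level for let-7a, 75.8% for let-7b, 71.7% for let-7c, 80.3% for let-7d, 82.0% for let-7e, 81.0% for let-7f and 80.2% for let-7i, but 178.0% for miR-98. The direction went with brightness across the array. Of the 20 brightest miRNAs, 7 were let-7 members on each array. Among the other 13 of these on the vehicle array, the background-corrected log2 ratio without normalization between the arrays had a median of -0.22 and was below 0 for 10. Among the 20 miRNAs detected on both arrays that were nearest to miR-98 in vehicle signal, the median was 1.20 (SD 0.77 over miRNAs), against 0.97 for miR-98, and 11 of the 20 were higher than miR-98. The study normalized its arrays with a cyclic method, and cyclic loess over the 349 miRNA probes, which follows brightness, was used here. No member spot was near the brightest spot of its array (31821 against 62319 with vehicle and 22171 against 50831 with alcohol).

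After cyclic loess, the signals of let-7a, let-7d, let-7f and miR-98 on the alcohol array were between 97.3% and 103.2% of those on the vehicle array, and those of let-7b, let-7c, let-7e and let-7i were lower by a margin larger than the spread of their repeat spots. The normalized signal of let-7a was 24985 with vehicle and 24539 with alcohol, a log2 ratio of -0.03 ± 0.06 (SD over 9 paired spots). That of let-7f was 22069 and 22143, a log2 ratio of 0.0049 ± 0.047. let-7d had 20950.3 and 20382, with -0.04 ± 0.22 over the 8 positions without the failed spot. The median was used for each probe, since with all 9 positions the SD of let-7d was 2.50. miR-98 had 1231 and 1271, with 0.05 ± 0.17.

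let-7c had 23692 and 21095, a log2 ratio of -0.17 ± 0.06, and let-7b had 18987 and 16568, with -0.20 ± 0.06. let-7i had 16181 and 14204, with -0.19 ± 0.04. let-7e had 13432 and 11293, or 84.1% of the vehicle level, with -0.25 ± 0.06, the lowest ratio of the family. All 9 positions were below 0 for let-7b, let-7c, let-7e and let-7i, and 8 of 9 for let-7a and let-7f. For let-7d, 7 of the 8 positions without the failed spot were below 0, and for miR-98 3 of 9. The position-wise ratios thus lean lower than the ratio of medians, with a median over positions of -0.09 for let-7a and -0.07 for let-7f. Both of these were larger in size than the SD over spots of the same probe. How close let-7a and let-7f came to 0 therefore depended on the ratio of medians. Under cyclic loess the ratio of let-7a exceeded those of let-7b, let-7e and let-7i at all 9 positions and that of let-7c at 8 of 9. The ratio of let-7f exceeded those of let-7b, let-7c, let-7e and let-7i at all 9 positions. The SDs over spots cover technical error within an array, since the spots share 1 RNA sample, and say nothing about the spread between rats.

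None of the 8 members passed 1.3-fold in either direction. To be called, a miRNA had to be detected on an array, to reach a normalized signal of 400 on either array and to differ by 1.3-fold, which is 0.379 on the log2 scale. Of 124 miRNAs that met the first conditions, 30 (24.2%) were called higher on the alcohol array and 26 (21.0%) were called lower. At 1.5-fold the shares were 15.3% and 14.5%, and at 2-fold 8.87% and 7.26%, again without any member. The members had a median absolute log2 ratio of 0.107, against 0.321 over the 124, and their highest was 0.25. Of the 124, which include the 8 members, 51 lay within that value, the members by definition. The 124 ranged from -2.18 to 4.14. The 13 other miRNAs among the 20 brightest had log2 ratios between -0.28 and 0.29 (median 0.04), a range that holds all 8 members. The median of the family was -0.10, and that of the 124 was 0.0049.

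**Figure D2:**
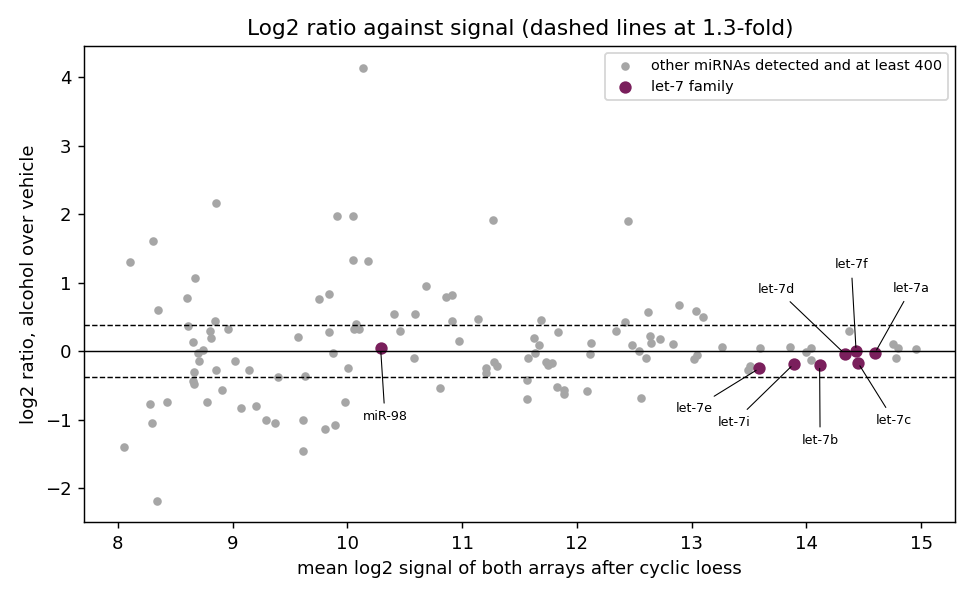
Log2 ratio of alcohol over vehicle against the mean log2 signal of both arrays after cyclic loess, for the 8 members and the other detected miRNAs with a signal of at least 400. The dashed lines mark 1.3-fold; all 8 members lie between them, from -0.25 for let-7e to 0.05 for miR-98.

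The family made up 2.29% of the miRNA probes, and its part in their summed normalized signal was 21.8% with vehicle and 19.6% with alcohol. Without correction or normalization these shares were 22.3% and 17.1%. Within the family, let-7a held 17.7% ± 0.56 with vehicle and 18.7% ± 0.22 with alcohol (SD over the 8 spot positions without the failed let-7d spot). let-7f went from 15.6% ± 0.48 to 16.8% ± 0.08, and let-7c from 16.7% ± 0.17 to 16.0% ± 0.14. let-7d had 14.8% ± 1.51 and 15.5% ± 0.04. The shares of let-7b were 13.4% ± 0.18 and 12.6% ± 0.10, those of let-7i 11.4% ± 0.37 and 10.8% ± 0.10, and those of let-7e 9.49% ± 0.30 and 8.59% ± 0.29. miR-98 held 0.870% ± 0.12 and 0.967% ± 0.14. This near equality depended on the normalization. As raw medians miR-98 had 178.0% of its vehicle level on the alcohol array and every let-7 probe had less than its own. Its share thus rose more without normalization. let-7a, c, f and d together held 64.8% ± 0.54 with vehicle and 67.0% ± 0.31 with alcohol. Brightness depends on each probe as well as on the amount of its miRNA, so these are shares of signal and not of molecules.

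**Figure D3:**
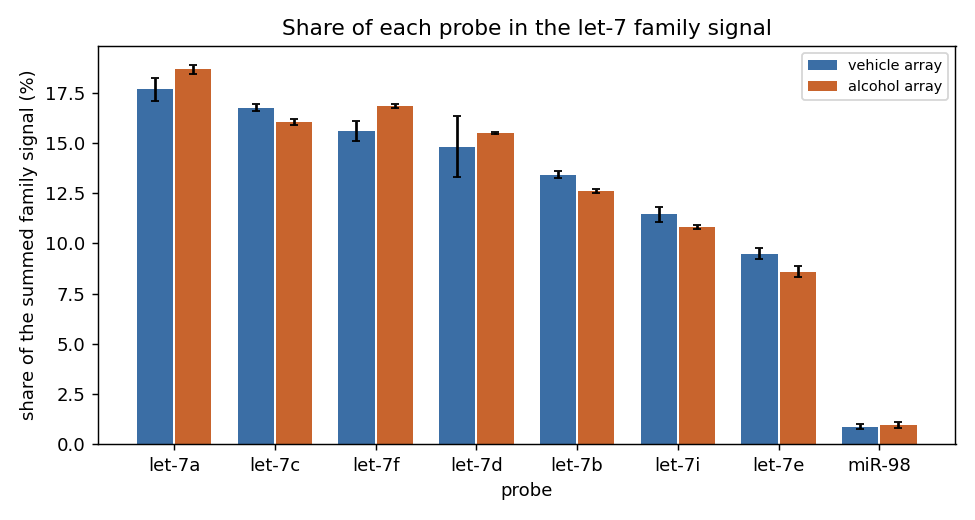
Share of each probe in the summed normalized signal of the family (%), on the vehicle and alcohol arrays, with bars starting at 0 and error bars of 1 SD over 8 spot positions. After cyclic loess let-7a holds the highest share on both arrays (17.7% and 18.7%), and miR-98 holds under 1% on both (0.870% and 0.967%). The share of miR-98 depends on the normalization.

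The ratios of the family depended on the normalization. The let-7a to i ratios spanned 0.26 log2 units under cyclic loess and 0.92 with the mean of spots, through let-7d. Without normalization the 8 members ran from -0.48 for let-7c to 0.97 for miR-98. The median of the 8 members ranged from -1.51 when the arrays were scaled to the median of detected miRNAs to -0.06 with the processed signals of the authors. Without normalization between arrays the median was -0.31, 3 members were called lower (let-7a, b and c, with 6.25% of 128 miRNAs called lower) and miR-98 was called higher (with 63.3% of 128 called higher). Scaled to the median of detected miRNAs, the 7 members other than miR-98 were called lower, and so were 63.1% of 122 miRNAs, with 13.9% higher. Scaled to the 75th percentile, the same 7 members were called lower, with 50% of 126 miRNAs lower and 20.6% higher. Scaling to the calibration spikes called let-7b and let-7c lower (3.91% of 128 lower) and miR-98 higher (66.4% higher), and scaling to the 5S rRNA probes called miR-98 alone, again higher (74.8% of 131 higher and 0.763% lower). No member was called with quantile normalization, where 17.9% of the tested miRNAs were higher and 26.8% lower, or with the processed signals of the authors, where 22.1% were higher and 29.2% lower. The same held with loess fitted without the 8 members (24.2% higher and 21.0% lower), without background correction (22.8% and 18.4%), with the mismatched baseline subtracted (24.8% and 21.9%), with the first 5 spots (22.2% and 19.8%) and with the last 4 spots (29.5% and 21.3%). With the mean of the spots in place of the median, let-7d was called lower at -0.98 through its failed spot, and 26.4% of the tested miRNAs were higher and 20.8% lower. In each of the 15 ways run, the median of the family was below 0. The median of the tested miRNAs ran from -0.67, scaled to the median of detected miRNAs, to 0.95, scaled to the 5S rRNA probes. With the processed signals of the authors both medians were -0.06, and with quantile normalization they were -0.11 for the family and -0.08 for the tested miRNAs.

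**Figure D4:**
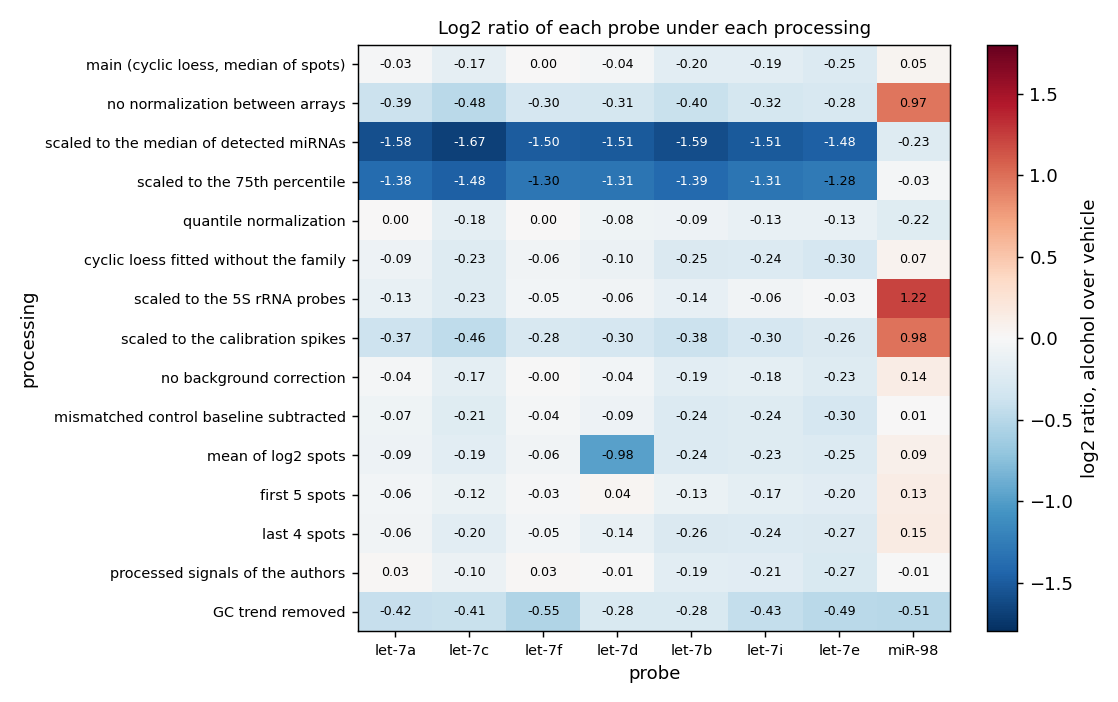
Log2 ratio of alcohol over vehicle for each probe (columns) under each way of processing (rows), with the value printed in each field and colour from blue (lower on the alcohol array) to red (higher). Without normalization miR-98 lies at 0.97 and let-7c at -0.48; scaling by a constant leaves this gap as it is, and under cyclic loess they lie at 0.05 and -0.17.

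The order of the ratios within the family also depended on the normalization. let-7e had the lowest ratio of the 7 let-7 probes under cyclic loess (-0.25) and the highest without normalization (-0.28, against -0.48 for let-7c). Of the 21 pairs of let-7 probes, 10 changed the sign of their difference between these. A difference between members is the same without normalization and under each scaling by a constant, so these count as 1 way here. let-7a exceeded let-7b by 0.17 under cyclic loess but by 0.01 without normalization, and let-7f exceeded let-7i by 0.19 and by 0.01. The difference of let-7a over let-7c was 0.14 and 0.09, and let-7c was below let-7f by nearly the same margin both times (-0.17 and -0.18), although over all ways of processing this difference ran from -0.18 to 0.14, the latter with the G and C trend removed.

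The ratios of the members went with their base composition, a relation examined after the ratios were known. let-7f and miR-98, with 7 G or C bases of 22, had log2 ratios of 0.0049 and 0.05. let-7a, with 8, had -0.03. let-7c, d, e and i, with 9, lay between -0.25 and -0.04, and let-7b, with 10, had -0.20. Over the 8 members Pearson's r was -0.82 (-0.59 without normalization between arrays), and over the 7 let-7 probes -0.74 (-0.29). The 150 miRNAs detected on both arrays had r of -0.42 (-0.28). These points share the same pair of arrays, and the part that base composition had in the ratios was not tested. When a straight line of the ratio on the number of G and C bases, fitted over the 150 miRNAs, was removed, all 8 members were between -0.55 and -0.28, and 6 of them, all but let-7b and let-7d, were called lower, beside 25.8% of the tested miRNAs (22.5% were higher).

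**Figure D5:**
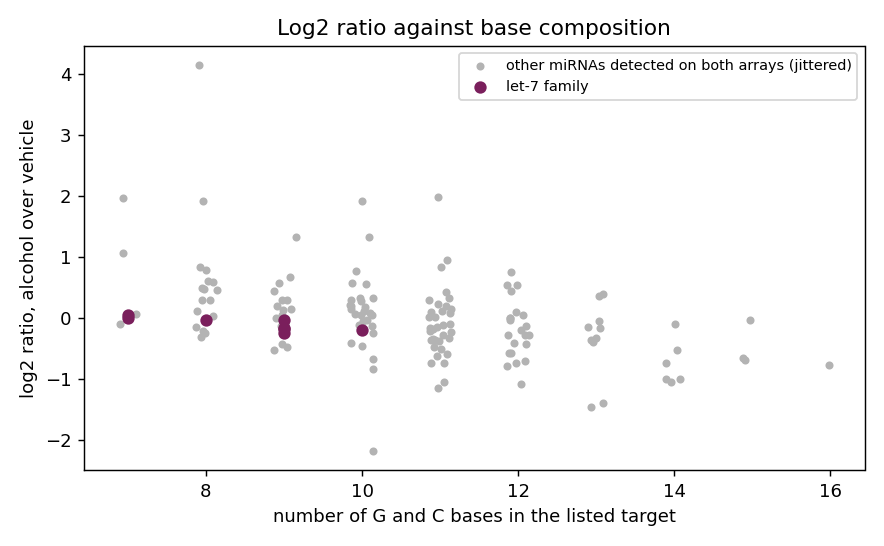
Log2 ratio of alcohol over vehicle after cyclic loess against the number of G and C bases in the listed target, for the 8 members and the other miRNAs detected on both arrays (moved slightly sideways so that points do not cover each other). The members, with 7 to 10 such bases, lie between -0.25 and 0.05 and the ratios of all 150 miRNAs decline with G and C content (r = -0.42).

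Of the passenger strands of these hairpins, the array held let-7b*, let-7d*, let-7e* and let-7i*. let-7b*, let-7e* and let-7i* were not detected on the vehicle array, with 0 of 9 spots above the threshold each. On the alcohol array let-7b* passed the detection rule narrowly with 5 of its 9 spots, and the others had 0. let-7d* was detected at all 9 spots of both arrays. With vehicle, the raw density of let-7d* was 788 at the lowest, 1065 at the median and 1551 at the highest spot, and 782, 923 and 1082 on the alcohol array, so that the ranges overlapped. Its log2 ratio was -1.14 ± 0.22 after cyclic loess but -0.13 without normalization, and ranged from -1.33 to 0.12 over the ways of processing. The guide strand let-7d had -0.04 and -0.31 in these same processings and ranked 8 of 349 in vehicle signal, whereas let-7d* ranked 67.

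Of the miRNAs made from the same clusters, miR-99b and miR-125a-5p had ratios within the range of the members after cyclic loess, and miR-125b-5p lay slightly above it. miR-100 and miR-99a stood higher. They ranked 74 and 64 in vehicle signal, beside 73 for miR-98. The 20 miRNAs nearest to miR-98 in signal had a median log2 ratio of 1.20 without normalization, and the part of brightness was not tested. miR-100 and miR-99a, of the miR-99/100 family, had log2 ratios of 0.95 ± 0.35 and 0.83 ± 0.40 after cyclic loess, and both stayed above 0 in every way of processing run (from 0.59 to 2.04 and from 0.41 to 1.86). miR-99b, the neighbour of let-7e, had -0.10 ± 0.25 after cyclic loess (from -0.72 to 0.73 over the ways of processing). miR-125a-5p, from the cluster of let-7e, had -0.01 ± 0.40 (from -1.37 to 0.47). miR-125b-5p, made beside let-7a and let-7c, had 0.10 ± 0.13 (from -1.51 to 0.26). The other miRNAs whose signals on both arrays lay nearest to the median point of the family were miR-132, miR-124 and miR-125a-5p, at distances of 0.27, 0.29 and 0.33 log2 units over the pair of arrays. Their log2 ratios were -0.12 ± 0.05, 0.05 ± 0.06 and -0.01 ± 0.40.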

How the data were processed

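Small RNA from rat NAc was tailed, tagged for Cy3 and hybridized to 1-colour LC Sciences arrays, with 1 array per group. The values are the spot intensity that the authors deposited, which is the mean pixel density without background subtraction (3968 spots, 9 per miRNA probe), and their processed signal per probe, also an intensity, which by the series text was normalized with a cyclic method. The image software and background method are not given in the sources used here. No genome build is named for the files.

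Background correction used normexp of limma 3.58.1 under R 4.3.3 (offset 50, fitted on the foreground over all spots). Values were log2-transformed, the median of the 9 spots was taken, and cyclic loess over 349 miRNA probes (span 0.7, 3 iterations) normalized the pair of arrays. Other steps used Python 3.11.15, numpy 2.4.6, pandas 2.3.3 and scipy 1.17.1. Ratios are alcohol over vehicle, and the SD over repeat spots is technical. With 1 array per group no test was made, and precision is limited by the number of arrays. Normalization and calls were run on simulated arrays with a smooth trend in brightness and as many miRNAs raised as lowered. Such arrays cannot show which normalization suits the real ones.

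The members, lists and thresholds were chosen with earlier results of these data known. The named miRNAs are the members, the passenger strands of their hairpins, the guide strands of miR-99, miR-100 and miR-125 from their clusters, and the 3 probes nearest to the family median. The plan for the detection rule gave no scale for the median absolute deviation. The unscaled form was run first and gave 164, 207 and 163 detected miRNAs (vehicle, alcohol and both). It was replaced, after these counts were seen, by the scaled form used before on these data, and the 8 members were detected on both arrays either way. The definition of a failed spot, the miRNAs of like brightness, the loop motif and the base composition were chosen after values were seen. In all, 14 alternatives were run, 13 of them planned, beside thresholds of 1.5-fold and 2-fold.

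Array targets were matched by sequence to RefSeq mature miRNAs (GRCr8), and 289 of 349 matched.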

Additional observations from a re-analysis of the deposited data

How the results depend on the processing

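The median log2 ratio of the 8 members, -0.10 under cyclic loess, was below 0 under all 14 alternatives. That of the tested miRNAs ran from -0.67 to 0.95 over these alternatives. The family median moved by more than the median spot SD of the family (0.048) under 8 of them. It was -0.31 without normalization between arrays, -1.51 scaled to the median of detected miRNAs, -1.31 scaled to the 75th percentile, -0.17 with loess fitted without the family, -0.30 scaled to the calibration spikes, -0.21 with the mean of log2 spots, -0.17 with the last 4 spots, and -0.42 with the trend on G and C bases removed, an alternative chosen after seeing the data. The count of members past 1.3-fold was 0 in both directions under cyclic loess. The percentages that follow are the tested miRNAs called in the same direction. The count became 1 higher (miR-98) without normalization (63.3%), scaled to the 5S rRNA probes (74.8%) and scaled to the calibration spikes (66.4%). It became 3 lower without normalization (6.25%) and 2 lower when scaled to the spikes (3.91%). It became 7 lower when scaled to the median of detected miRNAs (63.1%) or to the 75th percentile (50%). With the mean of spots it was 1 lower (let-7d, at -0.98, through its failed spot, beside 20.8%), and with the G and C trend removed 6 lower (25.8%). At 1.5-fold and 2-fold no member was called under cyclic loess. The share of let-7a, c, f and d on the vehicle array, 64.8%, was 66.4% without normalization and 65.5% with quantile normalization. Apart from the let-7d value, the causes were not tested. No paired analysis was possible because vehicle and alcohol had 1 array each, and no array could be left out for the same reason. On the vehicle array the raw medians of the let-7 probes lay between 13704 and 28439. That of miR-98 was 1020.3, against 241 for the mismatched controls. The part that brightness had in the ratios was not tested.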
